A study of Homo sapiens with 6 samples.

Results

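The genes of the hypoxia response and of glycolysis were followed through 6 arrays of VCaP cells after SOX9 knockdown. The set held 38 genes, taken by exact symbol from the array's probe annotation, out of 19775 genes with a probe set of their own. Each gene was read from its probe set with the highest mean signal over the 6 arrays. Of the 38, 36 had such a probe set and 34 passed the filter on low signal, a mean log2(signal + 16) of at least 5.25, which 12431 genes passed in all. CA9 and SLC16A3 were not analysed here. ANGPTL4, with signals from 4.10 to 31.2, and BNIP3L, with signals from 5.30 to 20.2, fell below the filter and were not tested.

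VCaP, an established line of human prostate cancer, is positive for the TMPRSS2/ERG fusion, in which the promoter of an androgen-regulated gene drives an ETS factor. Cells grown in DMEM with fetal bovine serum received SOX9 siRNA A, SOX9 siRNA B or a control siRNA without a target, and total RNA was taken 72 h later. Each of the 3 groups held 2 arrays (Affymetrix Human Genome U133 Plus 2.0), numbered replicate 1 and replicate 2 and called biological duplicates in the series' design. All arrays come from this 1 line, the knockdown was transient, and the labels used here name no oxygen level.

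Cells sense oxygen through prolyl hydroxylases of the EGLN family, which mark the alpha subunits of hypoxia-inducible factor (HIF), HIF1A and EPAS1, for degradation while oxygen is present. When oxygen is short, the stabilised subunits bind hypoxia response elements with the core letters ACGTG or GCGTG and switch on genes of glucose uptake, glycolysis, lactate release, pH control, blood vessel growth, mitophagy and collagen hydroxylation. Because HIF alpha is controlled mainly at the protein level, its targets can move without a change in HIF1A mRNA. The same glycolytic genes are also transcribed at a basal level in proliferating cancer cells.

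SOX9, the targeted gene, read 1108 (replicate 1) and 673 (replicate 2) under siRNA A, 609 and 334 under siRNA B, and 1469 and 1126 in control. All 4 knockdown arrays lay below both control arrays, and the log2 difference for both siRNAs, -1.02 (SE 0.29), was not called over all genes (limma adjusted p = 0.435, and 0.00189 when replicate number was a block). By siRNA, the SOX9 difference from control was -0.57 (SE 0.34) for siRNA A and -1.48 (SE 0.34) for siRNA B. Neither was called (limma adjusted p = 0.999 and 0.113), and with the block only siRNA B was (0.529 and 1.80e-05). The replicate 2 minus replicate 1 difference of SOX9 in the siRNA arrays was -0.77 (SE 0.27, limma adjusted p = 0.0501). The 2% trimmed mean signal ran from 144 to 190, lowest in replicate 1 and highest in replicate 2 of siRNA B. All 9 luminal prostate markers measured passed the filter, but not all were steady. KLK2 lay between 15122 and 17513, while in replicates 1 and 2 KLK3 read 2064 and 825 under siRNA A, 1474 and 833 under siRNA B and 1998 and 1295 in control. TMPRSS2 was likewise lower in replicate 2 of both siRNAs (926 and 819) than in the other arrays (1124 to 1818), and SLC45A3 was higher there (1466 and 752, against 317 to 531); their part in the results was not tested. Of the other cell types' markers 1 each passed for basal (2 measured), fibroblast (6), leukocyte (5), endothelial (4) and erythroid cells (1), and the summed signal of no such list exceeded 280.4 in any array, that of the fibroblast list in an siRNA B array; their part in the results was not tested.

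Relative to control, neither siRNA nor both together changed any of the 34 genes past the test, but the arrays within each siRNA were far apart. With both siRNAs against control 28 of 34 genes had a negative log2 difference, where 6852 of all 12431 tested genes did. The median was -0.35 against -0.037 over all tested genes. Of the 34, 0 were called where 0.0402% of all tested genes were (0.0161% lower and 0.0241% higher). A call was a limma, Benjamini-Hochberg adjusted p below 0.05, and the smallest of the 34 was 0.482. At an unadjusted limma p below 0.05 were 9 of 34 genes, as were 7.75% of all genes. For siRNA A the median was -0.39 and for siRNA B -0.29, again with 0 of 34 called where 0.0161% and 0.185% of all genes were (limma, 3 and 10 at an unadjusted p below 0.05; for siRNA B 0.0965% lower and 0.0885% higher). These comparisons share the control arrays. Apart from the 7.75% above, the share of all genes at an unadjusted p below 0.05 was not worked out, here or below. The other counts at that level thus have no background beside them. Without the intensity trend in limma the counts were also 0, with 7, 2 and 7 at an unadjusted p below 0.05. With the replicate number as a block, 11 of 34 were lower with both siRNAs, where 3.53% of all genes were called, 2.42% lower and 1.11% higher: CA12, P4HA1, VEGFA, MXI1, EGLN3, PFKP, HK2, PDK1, BNIP3, LDHA and ENO1, the last at an adjusted p of 0.04998. The block gave 8 called genes for siRNA A (1.79% of all genes, 1.37% lower and 0.426% higher), all lower, and 11 for siRNA B (5.94% of all genes, 3.86% lower and 2.08% higher), where 10 were lower and P4HA2 was higher. In that fit limma took each gene's spread from the trend and gave no weight to the gene's own, which can make its p-values too small. The block also fitted 1 replicate shift to all 3 groups, although the shift was smaller in control. The median shift of the 34 genes was -0.71 in siRNA A, -0.60 in siRNA B and -0.11 in control, so the blocked calls are uncertain.

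Array by array, the median of the 34 genes against the control mean, on the log2 scale, was -0.022 (replicate 1) and -0.72 (replicate 2) under siRNA A, -0.11 and -0.64 under siRNA B, and 0.055 and -0.055 in control. Over all tested genes the same medians were -0.011, -0.076, -0.17, 0.13, -0.070 and 0.070. The replicate 1 arrays of both siRNAs were thus close to control in this set, and the replicate 2 arrays were low. In bulk RNA, fewer cells with high expression and less RNA per cell cannot be told apart. Without the replicate 2 arrays of both siRNAs the median was -0.064 with 0 of 34 called (limma, 0 at an unadjusted p below 0.05, siRNA arrays taken as 1 group). Without the replicate 1 arrays it was -0.65, against 0.025 over all genes, with 14 called, all lower, where 4.71% of all genes were called, 3.05% lower and 1.67% higher.

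**Figure D1:**
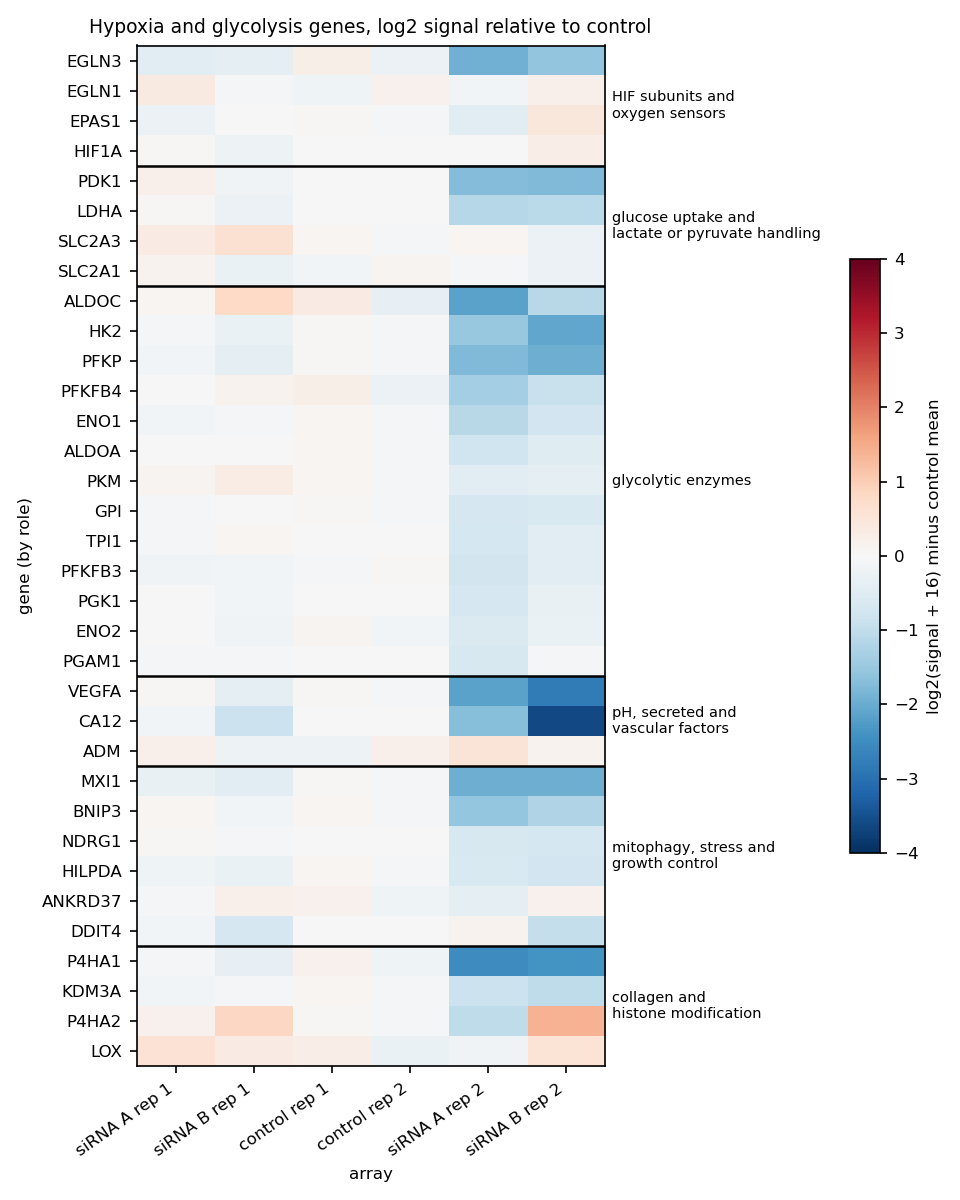
Each cell shows log2(signal + 16) of 1 gene in 1 array minus that gene's mean in the 2 control arrays, with genes in rows by role and arrays in columns. Most rows are pale in the replicate 1 and control arrays and blue in replicate 2 of both siRNAs (A, then B), whose medians were -0.72 and -0.64.

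The difference between the replicate 2 and replicate 1 arrays of the SOX9 siRNAs was fitted as a term of its own beside the 3 group means. A replicate difference had been seen in these arrays before the fit, so its direction and p-values are not independent evidence. Of 34 genes, 31 had a negative difference and 17 were lower in replicate 2, while 0 were higher. Over all tested genes 4619 of 12431 had a negative difference, 3.31% were called lower and 4.59% higher, 7.91% in all. The median was -0.59 in the set and 0.12 over all genes, the opposite sign. When arrays were quantile normalized, median centred or set to 1 trimmed mean, 23 of 34 were lower, with 0 higher, where 9.44%, 7.92% and 10.0% of all genes were called lower, and the share of higher genes among all calls was 41.6%, 50.5% and 38.8% in place of 58.1%. Both replicate 2 arrays of the siRNAs lay below the other 4 arrays in 23 of 34 genes, where 12.5% of all tested genes did so, and above them in 0 of 34, where 18.5% did.

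In control the same difference was smaller. The median replicate 2 minus replicate 1 difference of the 34 genes was -0.71 in siRNA A, -0.60 in siRNA B and -0.11 in control. Over all tested genes these medians were -0.066, 0.31 and 0.14. In the same order 32, 27 and 27 of the 34 genes were negative, where 7128, 3244 and 3484 of all 12431 were. When the control's own difference was subtracted, 0 of 34 genes passed (limma on 1 residual degree of freedom, 11 at an unadjusted p below 0.05), where 0.129% of all genes did (0.0965% lower and 0.0322% higher). With median centring added, 10 of 34 passed, all lower, where 1.21% of all genes were called, 0.837% lower and 0.378% higher: VEGFA, P4HA1, CA12, ALDOC, PDK1, HK2, PFKP, MXI1, BNIP3 and LDHA. The fit of the replicate difference also used limma's trend in place of each gene's own spread, so its small p-values below are approximate. The GAPDH 3'/5' signal ratio, a measure of RNA integrity, was 1.19 in replicate 2 of siRNA A and from 1.04 to 1.12 in the other arrays, and the ACTB ratio was lowest in replicate 2 of siRNA B (2.91) and highest in that of siRNA A (3.79). Their part in the result was not tested.

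**Figure D2:**
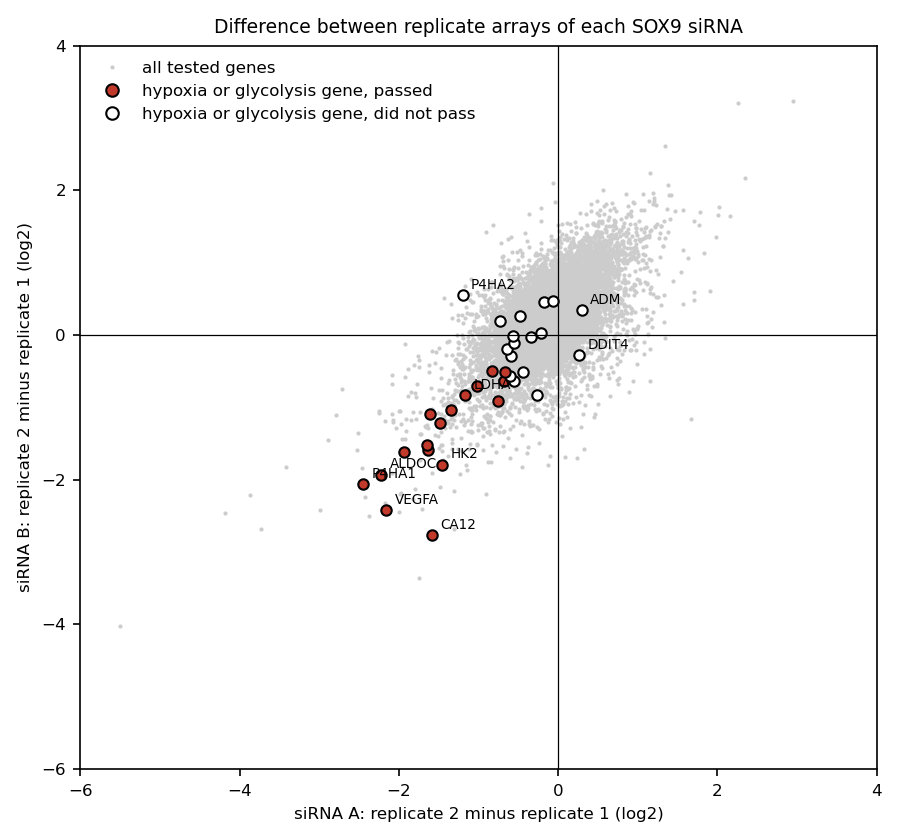
Each point is a gene, placed by its replicate 2 minus replicate 1 difference in log2(signal + 16) in siRNA A (horizontal) and siRNA B (vertical), with all 12431 tested genes in grey and the 34 hypoxia and glycolysis genes as circles. The 17 filled circles, the genes that passed the test, all lie in the lower left, while ADM, DDIT4 and P4HA2 lie elsewhere.

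Neither HIF subunit gene passed a test. HIF1A, the subunit found in most cells, had signals of 4126 and 3960 under siRNA A, 3470 and 4819 under siRNA B and 4060.5 and 3943 in control, in the order replicate 1 and replicate 2. The knockdown arrays spread around both controls, and the log2 difference for both siRNAs was 0.023 (SE 0.18, limma adjusted p = 0.988). EPAS1, which encodes the related subunit HIF-2 alpha, read 683 and 599 under siRNA A, below both controls (828 and 782), and 809 and 1113 under siRNA B. Its replicate difference was 0.14 and that of HIF1A 0.21, neither past the test (limma adjusted p = 0.824 and 0.595).

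Of the oxygen sensors 1 passed for the replicate difference. EGLN1, the main prolyl hydroxylase of HIF alpha, had 931 and 661 under siRNA A, 695 and 833 under siRNA B and 637 and 819 in control, so that the groups overlapped. EGLN3, an inducible prolyl hydroxylase, had 104 and 26.8 under siRNA A, 112 and 38.7 under siRNA B and 176 and 122 in control. All 4 knockdown arrays of EGLN3 were below both controls, and the replicate 2 arrays differed from replicate 1 by -1.36 (SE 0.25, limma adjusted p = 1.14e-05). The other EGLN3 probe set past the filter had a difference of -1.03.

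Among genes of glucose uptake and the fate of pyruvate, PDK1 and LDHA were lower in replicate 2 and the glucose transporters did not pass. PDK1, the kinase that inhibits pyruvate dehydrogenase, read 1781 and 452 under siRNA A, 1407 and 446 under siRNA B and 1562 and 1538 in control. Replicate 1 lay on either side of the controls, and replicate 2 was at 25.4% and 31.7% of replicate 1 (log2 difference -1.78, SE 0.26, limma adjusted p = 3.61e-09). LDHA, which reduces pyruvate to lactate, read 11072 and 4918 under siRNA A, 9070.5 and 5088 under siRNA B and 10997 and 10579 in control, a difference of -1.0 (SE 0.16, limma adjusted p = 6.15e-08). SLC2A1, the transporter GLUT1, stayed between 130 and 178 in all 6 arrays. SLC2A3, the transporter GLUT3, was dim and varied from 31.1 to 68.1. Its replicate 2 was at 78.7% of replicate 1 under siRNA A, 45.7% under siRNA B and 85.5% in control. The other SLC2A3 probe set past the filter had a replicate difference of 0.014. The replicate differences of SLC2A1 and SLC2A3, -0.091 and -0.55, did not pass (limma adjusted p = 0.878 and 0.255).

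All 13 tested glycolytic genes had a negative replicate difference, as did 4619 of all 12431 tested genes. Of the 13, 7 passed, where 3.31% of all genes were called lower. The 7 were the hexokinase HK2, the phosphofructokinase PFKP, the regulatory enzyme PFKFB4, the aldolases ALDOA and ALDOC, the isomerase TPI1 and the enolase ENO1. HK2, which phosphorylates glucose, read 671 and 235 under siRNA A, 581 and 157 under siRNA B and 729 and 689 in control. Its difference was -1.62 (SE 0.27, limma adjusted p = 2.77e-07). PFKP read 1437 and 450 under siRNA A, 1225 and 395 under siRNA B and 1625 and 1507 in control, a difference of -1.62 (SE 0.26, limma adjusted p = 1.94e-07). Both genes were below both controls in all 4 knockdown arrays, with the replicate 1 arrays near the controls.

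Both aldolases passed, ALDOA less firmly. ALDOC, the brain-type isozyme, read 517 and 98.1 under siRNA A, 861 and 214 under siRNA B and 613 and 385 in control. Its difference was -2.08 (SE 0.26, limma adjusted p = 2.42e-12), although the controls themselves differed and replicate 1 of siRNA B was above both of them. ALDOA, the muscle-type isozyme, read 4403 and 2469, 4382 and 3089, and 4616 and 4095 in the same order, a difference of -0.67 (SE 0.20, limma adjusted p = 0.0192). The ALDOA call was lost in 9 of 18 alternatives, among them those without the trend and without either siRNA A or either control array. ENO1 read 7218 and 3548 under siRNA A, 7402.5 and 4527 under siRNA B and 8121 and 7403 in control (-0.86, SE 0.17, limma adjusted p = 5.53e-05), while the neuronal enolase ENO2 stayed between 71.0 and 123 and did not pass (-0.33, limma adjusted p = 0.482). The median over the ENO1 probe sets, at -0.56, did not pass (limma adjusted p = 0.177).

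PFKFB4, which makes the activator of phosphofructokinase, had a difference of -1.19 (limma adjusted p = 0.000309) and TPI1 of -0.59 (limma adjusted p = 0.0186), a call lost in 9 of 18 alternatives, the same ones as for ALDOA. GPI at -0.59, PKM at -0.59, PFKFB3 at -0.44, PGK1 at -0.41 and PGAM1 at -0.29 did not pass, with limma adjusted p from 0.119 to 0.387. GPI, the isomerase after hexokinase, was nonetheless at 65.5% and 67.1% of replicate 1 in replicate 2 of both siRNAs (A, then B). PGK1 was at 64.1% under siRNA A and 87.6% under siRNA B, and PGAM1 at 67.5% and 98.6%. These 5 genes all passed after each of the 3 other scalings of the arrays. The other PKM probe set past the filter, dimmer at a mean signal of 49.7, had a difference of 0.29. The other PGK1 probe sets past the filter ran from -0.70 to 0.028.

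VEGFA and CA12 were among the genes with the largest replicate differences of the set. VEGFA, the vascular endothelial growth factor, read 1849 and 401 under siRNA A, 1390 and 246 under siRNA B and 1875 and 1734 in control. Replicate 2 was at 21.7% and 17.7% of replicate 1, against 92.5% in control, a difference of -2.29 (SE 0.26, limma adjusted p = 3.24e-15). CA12, a carbonic anhydrase of the cell surface that helps export acid, read 3151 and 1040 under siRNA A, 1896 and 264 under siRNA B and 3400.4 and 3434 in control. The difference was -2.18 (SE 0.25, limma adjusted p = 6.44e-16), and all 4 knockdown arrays lay below both controls. Its 5 other probe sets past the filter had differences from -2.30 to -0.80. ADM, the vasodilator peptide adrenomedullin and a HIF target in many cells, did not follow: it read 1654 and 2036, 1247 and 1583, and 1230 and 1656 in the same order, a difference of 0.32 (SE 0.25, limma adjusted p = 0.497), and was at 135% of replicate 1 in control too.

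**Figure D3:**
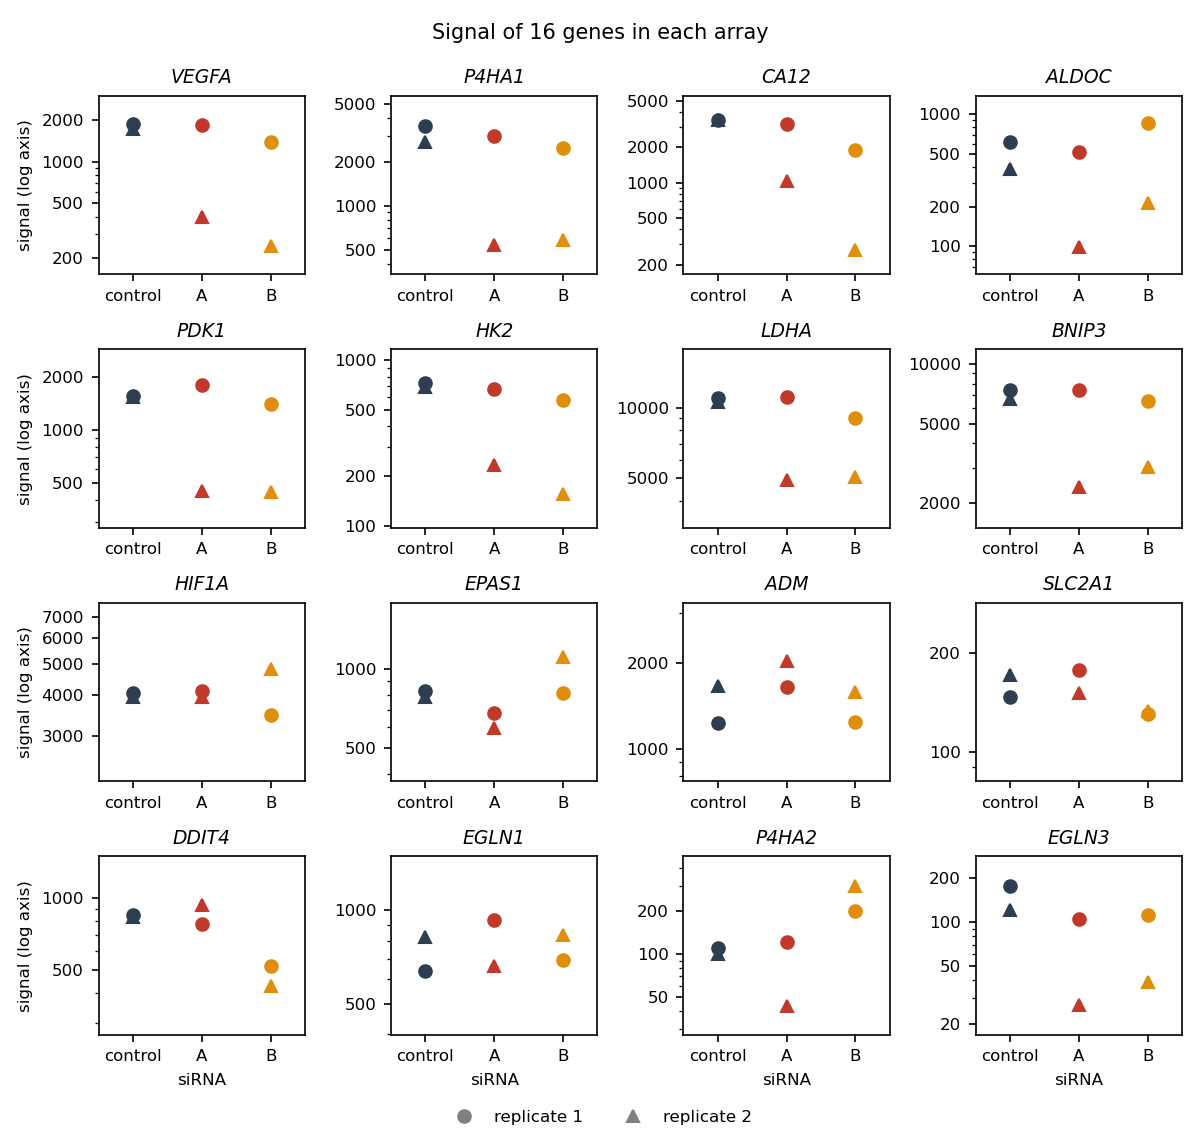
Signal on a log axis for 16 genes, with the control arrays and those of siRNA A and siRNA B in columns, circles for replicate 1 and triangles for replicate 2. In the first 8 genes and EGLN3 the triangles of both siRNAs lie below the other 4 arrays; in HIF1A, EPAS1, ADM, SLC2A1, DDIT4, EGLN1 and P4HA2 they do not.

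Of 6 tested genes of mitophagy, stress and growth control, BNIP3, NDRG1 and MXI1 passed. BNIP3, a receptor for mitophagy, read 7407 and 2410 under siRNA A, 6525 and 3038 under siRNA B and 7419 and 6712 in control, a difference of -1.36 (SE 0.18, limma adjusted p = 7.62e-11). MXI1, a MYC antagonist, read 1359 and 423, 1224 and 418, and 1726 and 1620, a difference of -1.58 (SE 0.26, limma adjusted p = 3.88e-07), with all 4 knockdown arrays below both controls. NDRG1, a stress-induced gene that androgen also raises in prostate cells, was among the brightest of the set, with 11616 and 7230 under siRNA A, 10723 and 6902 under siRNA B and 10962 and 11373 in control. Its difference was -0.66 (SE 0.15, limma adjusted p = 0.000569; 0.0838 without the trend).

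HILPDA, a lipid droplet protein, read 567 and 415 under siRNA A, 535 and 369 under siRNA B and 673 and 613 in control, and its difference of -0.48 did not pass (limma adjusted p = 0.310), except after each of the 3 other scalings. ANKRD37 stayed between 94.3 and 150 (limma adjusted p = 0.716). DDIT4, an inhibitor of mTOR complex 1, had 781 and 938 under siRNA A, 520 and 426 under siRNA B and 852 and 835 in control. Its values thus split by siRNA rather than by replicate, with a replicate difference of -0.010 (limma adjusted p = 0.989).

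P4HA1 and KDM3A passed among genes that modify collagen and histones. P4HA1, a catalytic subunit of collagen prolyl hydroxylase, read 3029 and 541 under siRNA A, 2493 and 586 under siRNA B and 3554 and 2762 in control, a difference of -2.26 (SE 0.24, limma adjusted p = 2.62e-17). KDM3A, a histone demethylase, read 810 and 473 under siRNA A, 818 and 427 under siRNA B and 927 and 822 in control (-0.83, SE 0.27, limma adjusted p = 0.0309; -0.27 as the median over its probe sets). That call was lost in 9 of 18 alternatives, among them those without either siRNA B or either control array. LOX, which crosslinks collagen, ranged from 38.2 to 82.3 and did not pass (limma adjusted p = 0.612). P4HA2, a related catalytic subunit, had 121 and 43.4 under siRNA A, 201 and 302 under siRNA B and 110 and 100.4 in control, so that replicate 2 was the lower array under siRNA A and the higher under siRNA B.

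For 8 of the 17 genes that passed, 18 further probe sets were past the filter, and all 18 had a negative difference, from -2.30 to -0.053. Over the set, 24 of 29 further probe sets had the sign of the one chosen. VEGFA's dimmest probe set past the filter, with a mean signal of 25.1, was the one at -0.053. Several of these genes, among them TPI1, PGK1, ENO1 and LDHA, have processed pseudogenes, and the probe sets chosen for ALDOA and CA12 carry probes that may also bind similar transcripts, so the source of part of their signal is uncertain.

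For siRNA A against siRNA B, P4HA2, CA12 and DDIT4 had the smallest p of the set, but 0 of 34 genes passed (limma, smallest adjusted p = 0.152, 3 at an unadjusted p below 0.05), where 0.0965% of all genes did, 0.0483% in each direction. P4HA2 was 82.0 ± 54.6 under siRNA A, 252 ± 71.8 under siRNA B and 105 ± 7.0 in control (SD, n = 2 each), a difference of -1.54 (SE 0.35) between the siRNAs. It was called with the replicate block (limma adjusted p = 4.84e-06), without control replicate 1 or 2 (0.00340 and 0.00347) and over the siRNA arrays alone (0.00314). The median over its probe sets differed by -0.19. CA12 was 2096 ± 1492 under siRNA A, 1080 ± 1154 under siRNA B and 3417 ± 23.8 in control. It differed by 1.32 (SE 0.62) between the siRNAs and was also called with the block (limma adjusted p = 8.59e-05), which called 2 of 34 genes where 2.9% of all were (1.41% lower and 1.5% higher). Without replicate 2 of siRNA B the CA12 difference was -0.064. In replicate 1 alone CA12 was at -0.84 under siRNA B and -0.12 under siRNA A relative to the control mean.

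CA12 was the gene of the set nearest to a call against control. Its difference for siRNA B was -2.23 (SE 0.62, limma adjusted p = 0.169), which passed without control replicate 1 or 2 (limma adjusted p = 0.000945 and 0.000852) and when siRNA B replicate 1 was left out (0.00963), and its difference for both siRNAs of -1.57 (SE 0.53) passed when siRNA B replicate 1 was left out (limma adjusted p = 0.0425). In these fits a group of 1 array is assumed to vary like the other groups, and leaving out siRNA B replicate 1 removes the gap between the siRNA B arrays. DDIT4 was 859 ± 111 under siRNA A, 473 ± 66.8 under siRNA B and 844 ± 11.8 in control, a difference of 0.84 (SE 0.28, limma adjusted p = 0.339) between the siRNAs. Both siRNA B arrays were below both controls, while the siRNA A arrays lay on either side of them. In all, 11 of 34 genes had all 4 knockdown arrays below both controls, where 11.8% of all tested genes did, and 0 had all 4 above, where 4.58% did.

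Promoter sequences are shown for the 6 genes with the largest replicate differences that had an entry, P4HA1, CA12, ALDOC, PDK1, HK2 and PFKP, and for the 2 with the smallest, DDIT4 and SLC2A1, so that the letters of the HIF core element can be read beside the responses. They come from RefSeq on GRCh38.p14 and run 5′ to 3′ on the gene's strand from 250 bases before to 50 bases after the start. P4HA1 lies at chr10:73096817-73097116 (minus strand), CA12 at chr15:63381797-63382096 (minus strand), ALDOC at chr17:28576846-28577145 (minus strand) and PDK1 at chr2:172555123-172555422 (plus strand). HK2 lies at chr2:74833877-74834176 (plus strand), PFKP at chr10:3067720-3068019 (plus strand), DDIT4 at chr10:72273674-72273973 (plus strand) and SLC2A1 at chr1:42958819-42959118 (minus strand). Capitals mark ACGTG and GCGTG on either strand, which read CACGT and CACGC on the other one and overlap in CACGTG.
P4HA1: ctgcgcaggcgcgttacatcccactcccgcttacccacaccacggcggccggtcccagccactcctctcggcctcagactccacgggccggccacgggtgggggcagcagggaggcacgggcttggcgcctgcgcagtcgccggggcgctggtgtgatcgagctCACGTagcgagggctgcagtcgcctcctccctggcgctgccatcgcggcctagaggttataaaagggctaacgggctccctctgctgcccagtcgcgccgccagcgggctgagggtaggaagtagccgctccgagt
CA12: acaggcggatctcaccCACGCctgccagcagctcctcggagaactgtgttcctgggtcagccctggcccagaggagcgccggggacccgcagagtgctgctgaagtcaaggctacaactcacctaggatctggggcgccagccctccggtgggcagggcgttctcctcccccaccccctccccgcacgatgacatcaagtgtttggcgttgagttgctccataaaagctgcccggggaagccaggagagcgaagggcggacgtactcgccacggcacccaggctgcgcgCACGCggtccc
ALDOC: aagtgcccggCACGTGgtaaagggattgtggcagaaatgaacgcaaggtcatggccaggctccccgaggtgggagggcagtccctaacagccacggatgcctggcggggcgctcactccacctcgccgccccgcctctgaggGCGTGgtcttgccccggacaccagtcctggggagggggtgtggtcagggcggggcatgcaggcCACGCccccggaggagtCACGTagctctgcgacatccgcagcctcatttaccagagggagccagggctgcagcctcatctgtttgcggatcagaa
PDK1: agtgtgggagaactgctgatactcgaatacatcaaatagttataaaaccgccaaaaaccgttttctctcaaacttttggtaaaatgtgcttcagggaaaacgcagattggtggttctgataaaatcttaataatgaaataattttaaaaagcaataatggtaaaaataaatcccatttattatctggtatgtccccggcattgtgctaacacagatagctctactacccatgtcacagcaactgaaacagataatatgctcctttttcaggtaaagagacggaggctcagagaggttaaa
HK2: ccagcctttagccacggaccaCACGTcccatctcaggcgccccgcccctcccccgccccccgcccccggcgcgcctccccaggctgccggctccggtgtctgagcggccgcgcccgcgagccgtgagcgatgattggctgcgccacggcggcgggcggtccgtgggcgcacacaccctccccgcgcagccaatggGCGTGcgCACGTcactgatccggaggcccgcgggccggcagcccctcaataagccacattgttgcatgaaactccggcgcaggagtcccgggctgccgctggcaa
PFKP: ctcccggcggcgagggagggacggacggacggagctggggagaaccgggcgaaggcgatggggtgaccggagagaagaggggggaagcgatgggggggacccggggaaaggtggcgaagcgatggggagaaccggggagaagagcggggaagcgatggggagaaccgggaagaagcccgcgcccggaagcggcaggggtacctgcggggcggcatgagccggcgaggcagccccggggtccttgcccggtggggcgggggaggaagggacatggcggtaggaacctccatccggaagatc
DDIT4: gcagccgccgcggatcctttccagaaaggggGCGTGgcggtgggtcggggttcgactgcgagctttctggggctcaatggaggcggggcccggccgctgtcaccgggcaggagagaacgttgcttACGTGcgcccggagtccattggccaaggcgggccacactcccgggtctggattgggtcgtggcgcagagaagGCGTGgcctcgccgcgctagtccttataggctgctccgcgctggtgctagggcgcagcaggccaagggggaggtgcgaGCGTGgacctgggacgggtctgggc
SLC2A1: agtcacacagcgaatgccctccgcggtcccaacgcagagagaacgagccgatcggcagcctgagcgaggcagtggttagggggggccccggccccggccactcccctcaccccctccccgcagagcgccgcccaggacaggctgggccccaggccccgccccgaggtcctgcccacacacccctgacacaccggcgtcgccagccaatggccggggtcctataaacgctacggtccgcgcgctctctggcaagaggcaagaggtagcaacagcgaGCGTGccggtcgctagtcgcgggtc

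Both genes that passed the replicate test and genes that did not held the core letters. P4HA1 held 1 match, CA12 2, HK2 3 and ALDOC 5 match positions, 2 of them in a single CACGTG, while PDK1 and PFKP, with differences of -1.78 and -1.62, held none in these 300 bases. The PDK1 stretch had a GC content of 36.3%, far below the set's median of 69.7%, and whether these cells use that start was not tested. DDIT4 held 4 and SLC2A1 held 1, with differences of -0.010 and -0.091. A promoter was found for 31 of the 38 genes, and 24 of these (77.4%) held ACGTG or GCGTG, against 48.4% of all 35116 promoters of this length. The shares were 45.2% against 21.4% for ACGTG and 51.6% against 36.5% for GCGTG, beside a median GC content of 69.7% against 58.7%. Among the genes lower in replicate 2, 10 of 15 promoters held a match, and among tested genes that did not pass, 13 of 15. LDHA, with 6 match positions, and BNIP3, with 6, held the most. A match describes letters and not binding, and these shares were not tested.

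Other genes of the pathway came from lists chosen, like the set, with earlier results of these data known. Of 32 further hypoxia-induced genes tested, 0 passed for both siRNAs against control, where 0.0402% of all tested genes did. For the replicate difference 13 passed, 10 lower and 3 higher, where 3.31% and 4.59% of all genes did (7.91% in all). The median of the 32 genes was -0.23, against 0.12 over all tested genes. PLOD2, a collagen lysyl hydroxylase, had 2887 and 374 under siRNA A, 2095 and 756 under siRNA B and 1918 and 2295 in control, a difference of -2.17 (limma adjusted p = 5.01e-15). SPAG4 read 156 and 27.8 under siRNA A, 185 and 28.0 under siRNA B and 197 and 162 in control (-2.08, limma adjusted p = 5.03e-14), and KLF10, a TGF-beta induced zinc finger factor, had -1.65 (limma adjusted p = 4.63e-08). The 3 that were higher, named after their values were seen, were BHLHE40, a clock-related repressor (0.98, limma adjusted p = 0.00515), TFRC, the transferrin receptor (1.02, limma adjusted p = 7.91e-06), and IGFBP3, a binding protein for insulin-like growth factors (1.28, limma adjusted p = 1.58e-05). TFRC also differed between the control arrays, at 3920 and 5924, and without either siRNA B array it no longer passed. BHLHE40 did not pass without any 1 of the siRNA B or control arrays.

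With both siRNAs against control, the further hypoxia-induced genes with the smallest p were BHLHE40 at 1.11, STC1, a secreted glycoprotein, at -0.999 and BHLHE41 at 0.81, with limma adjusted p from 0.435 to 0.470, and from 0.000499 to 0.0328 with the replicate block. BHLHE40 read 242 and 451 under siRNA A, 339 and 748 under siRNA B and 165 and 199 in control, all 4 knockdown arrays above both controls. With the block, 6 of the 32 were lower and 2 higher, where 2.42% and 1.11% of all tested genes were. As stated above, p-values of the blocked fit can be too small.

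In the lists of pathway regulators and neighbouring routes 5 of 59 tested genes (8.47%) passed for the replicate difference, 4 higher and 1 lower, a share near the 7.91% of all genes. Of 13 regulators of HIF tested, 0 passed in either comparison (limma, smallest adjusted p = 0.0547), and their replicate difference had a median of 0.26, with RBX1, a subunit of the VHL ubiquitin ligase, at 0.69. Of 14 other glycolysis genes, which include GAPDH, HK1, PFKL, PFKM and LDHB, 0 passed lower and 1 passed higher, PGM2, a phosphopentomutase (0.84, limma adjusted p = 0.0303), and the median was 0.033. For both siRNAs against control PFKM, the muscle phosphofructokinase, had -0.48 (limma adjusted p = 0.637). Of 7 pentose phosphate genes 0 passed (limma), with a median of 0.11; for both siRNAs TKT, the transketolase, had -0.37 (limma adjusted p = 0.657).

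In the list of pyruvate oxidation and the citric acid cycle, 25 genes were tested, the median replicate difference was 0.39, and 3 were higher and 1 lower. PDK3, a second pyruvate dehydrogenase kinase that HIF can induce, read 684 and 289.5 under siRNA A, 418 and 188 under siRNA B and 647 and 576 in control (-1.14, limma adjusted p = 0.000950; -0.35 as the median over its probe sets). The subunits of the mitochondrial pyruvate carrier were higher, MPC1 by 1.04 (limma adjusted p = 0.00312) and MPC2 by 0.82 (limma adjusted p = 0.00318), and so was PDHB, a subunit of pyruvate dehydrogenase (0.62, limma adjusted p = 0.0442). Without either siRNA B array PGM2, MPC1, MPC2 and PDHB no longer passed, and the median over all tested genes was itself 0.12.

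**Figure D4:**
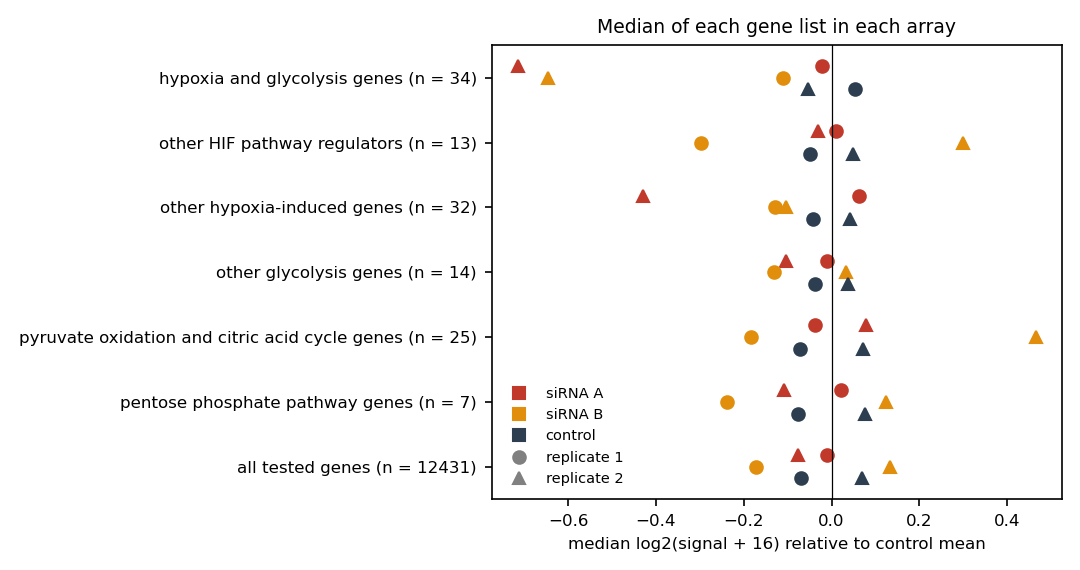
For each gene list the points give the median over its tested genes of log2(signal + 16) relative to the control mean, in each of the 6 arrays, with colour for the siRNA and shape for the replicate number. The hypoxia and glycolysis genes are at -0.72 and -0.64 in replicate 2 of both siRNAs (A, then B), where the other glycolysis genes are at -0.10 and 0.033.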

How the data were processed

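RNA of 6 arrays (3 groups of 2) was analysed. The authors deposited 1 intensity per probe set and array, unlogged, made with MAS5 per the submitters' processing notes; no version or target intensity was found in the labels. Values were used as log2(signal + 16) with the deposited scaling, which understates changes of dim genes. Of 54675 probe sets 62 were controls and left out, 41091 had 1 gene symbol, 1801 several and 11721 none. Of the probe sets with 1 symbol, 41037 had a gene identifier found in RefSeq (GRCh38.p14), and 0 symbols changed. A gene was its probe set with the highest mean signal, and genes with a mean log2 value below 5.25, the median of all probe sets, were not tested.

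The 12431 genes entered 1 linear model each (limma 3.58.1, R 4.3.3; lmFit, eBayes with trend; 3 residual degrees of freedom, 2 with the replicate term), Benjamini-Hochberg adjusted and called below 0.05. The tests for both siRNAs and for the replicate difference were checked on simulated arrays that varied independently of each other. The blocked and control-subtracted fits were not checked in this way. All 38 genes were open to naming, with up to 3 genes per other list and comparison by smallest p. The genes, the lists and the replicate comparison were chosen with earlier results of these data known. For the pairing check, deviations from the group means of same-numbered arrays correlated at 0.63 between the siRNAs and 0.18 of each with control. Arrays of 1 number were treated as pairs in the blocked fit, which rests on the data, not the labels. The 0.18 is a weak ground for pairing the control arrays with those of the siRNAs. The p-values measure the spread between these arrays only, and the number of arrays limits the precision.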

Additional observations from a re-analysis of the deposited data

How the results depend on the processing

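With 2 arrays per group, counts of calls over all genes moved with most settings. For both siRNAs against control 5 genes were called, 3 and 8 with offsets of 1 and 64, 0 with quantile normalization, median centring, a common trimmed mean or no filter, 9 with the stricter filter, 1 without the trend, and 10 at an adjusted p under 0.1. Without replicate 2 of both siRNAs the count was 0, and without replicate 1 of both it was 586. For siRNA A it was 2, and 0 with quantile normalization, a common trimmed mean or no filter, 1 with median centring or the median over probe sets, and 5 with the stricter filter. For siRNA B it was 23, and 0 with the 3 scalings or no filter, 58 with the stricter filter, 14 without the trend, 8 over only the groups compared and 44 at 0.1. For siRNA A against siRNA B it was 12, and 7 with an offset of 1, 0 with the 3 scalings or no filter, 20 with the stricter filter, 4 with the median over probe sets, 6 without the trend, 56 over only the groups compared and 28 at 0.1. With the replicate block these counts were 439, 223, 739 and 361, and with median centring added 567, 211, 1094 and 600. Leaving out 1 array gave 0 to 62, 0 to 18, 0 to 1002 and 0 to 291, the highest without replicate 1 of siRNA B (for siRNA A, without control replicate 2). The replicate difference had 983 calls, 2010, 1988 and 2036 with quantile normalization, median centring and a common trimmed mean, 353 without the filter, 428 over the 4 siRNA arrays, 16 with the control difference subtracted, 151 with centring too, and 428 to 2009 without 1 array (lowest without control replicate 1, highest without siRNA A replicate 1).

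Of the 34 hypoxia and glycolysis genes, the replicate block called 11, 8, 11 and 2 in the first 4 comparisons. Of all 12431 genes it called 439, 223, 739 and 361. With centring it called 11, 3, 12 and 3, beside 567, 211, 1094 and 600 of all genes. Over the siRNA arrays alone siRNA A against siRNA B had 1, beside 56 of all genes. Without replicate 1 of both siRNAs 14 were called for both, beside 586 of all genes. Leaving out 1 array gave 0 to 1, 0 to 0, 0 to 6 and 0 to 1, and 14 to 18 for the replicate difference, which had 0 calls with the control difference subtracted and 10 with centring added. The median for the replicate difference was -0.73 with quantile normalization and -0.77 with a common trimmed mean, and -0.71 to -0.59 without 1 array. For both siRNAs, siRNA A, siRNA B, and siRNA A against siRNA B, it ran from -0.50 to -0.18, -0.72 to -0.022, -0.64 to -0.11 and -0.49 to 0.30. The setting with control subtracted and the centred block were chosen after seeing the data.

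The signs that turned were of results not called in the main fits, but some were called in other settings. With the block PDK1 (both siRNAs), P4HA2 (siRNA B) and CA12 (siRNA A against siRNA B) were called. Without replicate 1 of both siRNAs ALDOC, PDK1 and PFKFB4 (both siRNAs) were called. Calls in fits without 1 array are left out here. For both siRNAs against control, without replicate 2 of both, ALDOA was at 0.015, ALDOC 0.44, ANKRD37 0.091, HIF1A -0.080, PDK1 0.030, PFKFB4 0.068, PKM 0.20 and TPI1 0.017; without replicate 1 of both, EPAS1 was at 0.023 and SLC2A3 at -0.077. ANKRD37 was at 0.0002 with an offset of 64, 0.040 with quantile normalization, 0.039 with centring (block or not) and 0.015 with a common trimmed mean. Leaving out 1 array, ADM ran from -0.044 to 0.38, ANKRD37 from -0.16 to 0.16, EGLN1 from -0.082 to 0.27, EPAS1 from -0.16 to 0.068, HIF1A from -0.095 to 0.14, PKM from -0.26 to 0.062 and SLC2A3 from -0.012 to 0.41. The median over probe sets gave P4HA2 -0.41 (siRNA B alone -0.31).

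For the replicate difference, subtracting control gave ADM -0.11, ANKRD37 0.13, DDIT4 0.018 and LOX 0.29, and with centring -0.095, 0.14, 0.029 and 0.30. EPAS1 was at -0.074 with quantile normalization and -0.043 with a common trimmed mean. Leaving out 1 array, DDIT4 ran from -0.28 to 0.26, EGLN1 from -0.48 to 0.26, EPAS1 from -0.18 to 0.45, HIF1A from -0.059 to 0.47, LOX from -0.73 to 0.19, P4HA2 from -1.20 to 0.55 and SLC2A1 from -0.21 to 0.032. The median over probe sets gave EGLN1 0.21 and SLC2A1 0.36. Leaving out 1 array, siRNA A against control ran from -0.11 to 0.15 for DDIT4 and from -1.03 to 0.17 for P4HA2, and siRNA A against siRNA B from -0.064 to 2.71 for CA12. The cause of these changes was not tested.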
